A study of Mus musculus with 4 samples.

Results

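Genes that code for the Polycomb repressive complexes were examined in the list of Zeb1 peaks of mESC kept in GS. The 10 members were named by their role. Ezh1, Ezh2, Eed, Suz12 and Jarid2 stand for PRC2, and Ring1, Rnf2, Cbx2, Cbx7 and Bmi1 for PRC1. Their peaks were the entries of the deposited list whose gene symbol is that of a member, which gave 16 of the 17435 peaks. Of the 10 members, 9 had at least 1 assigned peak and Bmi1 had none, beside 51.1% of the 21887 protein-coding RefSeq genes.

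The data are a ChIP-seq experiment, in which DNA fragments bound by a protein are recovered with an antibody and sequenced, and an input library without antibody gives the background. There were 3 Zeb1 ChIP libraries, made with 8 μg of antibody, and 1 input library, all from chromatin fixed with 1% formaldehyde and sheared to about 200 bp. The cells were D3, an established line of mouse embryonic stem cells, at passages 5 to 8. All libraries were of cells in GS, the ground state medium N2B27 with PD0325901 against MEK at 1 μM, CHIR99021 against GSK-3 at 3 μM, and LIF at 20 ng/mL. Each peak is listed with its treatment reads, its input reads and its enrichment over input, all as means. What these means were taken over could not be rebuilt: in 9 of the 16 peaks the treatment reads are a whole number over 7, although there were 3 ChIP libraries. Values of single libraries are not part of the list, so no SD could be given and no difference between peaks could be tested against the spread of the libraries. There was no untreated or Zeb1-deficient group, and every comparison here lies within 1 condition.

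Zeb1 is a zinc finger transcription factor that binds E-box sequences and is best known as a repressor of epithelial genes. Polycomb complexes keep developmental genes silent in embryonic stem cells. PRC2 methylates histone H3 on lysine 27, and PRC1 reads this mark and adds ubiquitin to histone H2A.

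A peak was taken as a promoter peak when its centre lay within 5 kb of the TSS named in the list, the limit used by the authors. Distances of peak centres are those listed, and distances of motif matches run from the centre of the match to the curated RefSeq TSS. All 9 members with an assigned peak had a promoter peak, which is 9 of the 10 members, beside 43.2% of all protein-coding genes. Of the 11193 protein-coding genes with an assigned peak, 9466 had a promoter peak. In each of the 9 genes a promoter peak also contained the TSS itself. The same held for 8976 of the 9466 protein-coding genes with a promoter peak, or 41.0% of all protein-coding genes. The shares of the members were higher than these backgrounds, and this was not tested. The median enrichment of the members' best promoter peak, the one with the highest enrichment, was 6.67, close to the 6.84 over all 9466 protein-coding genes with a promoter peak. With a limit of 10 kb in place of 5 kb the members' median was 9.81, beside 6.90 over all genes, so that its side of the background depends on this limit. Their values ran from 5.76 in Ezh2 to 11 in Jarid2, and the quartiles over all genes were 5.44 and 8.66. They fell into a lower set of 6 genes between 5.76 and 7.54 and an upper set of Suz12, Ring1 and Jarid2 between 10.6 and 11, with no member between 7.54 and 10.6. These sets were drawn with the values in view. With the limit of 10 kb Cbx2, at 9.81, and Cbx7, at 12.3, left the lower set. The medians of the complexes were 6.15 over the 5 genes of PRC2 and 7.11 over the 4 genes of PRC1 with a promoter peak, and each complex had genes in both sets.

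**Figure D1:**
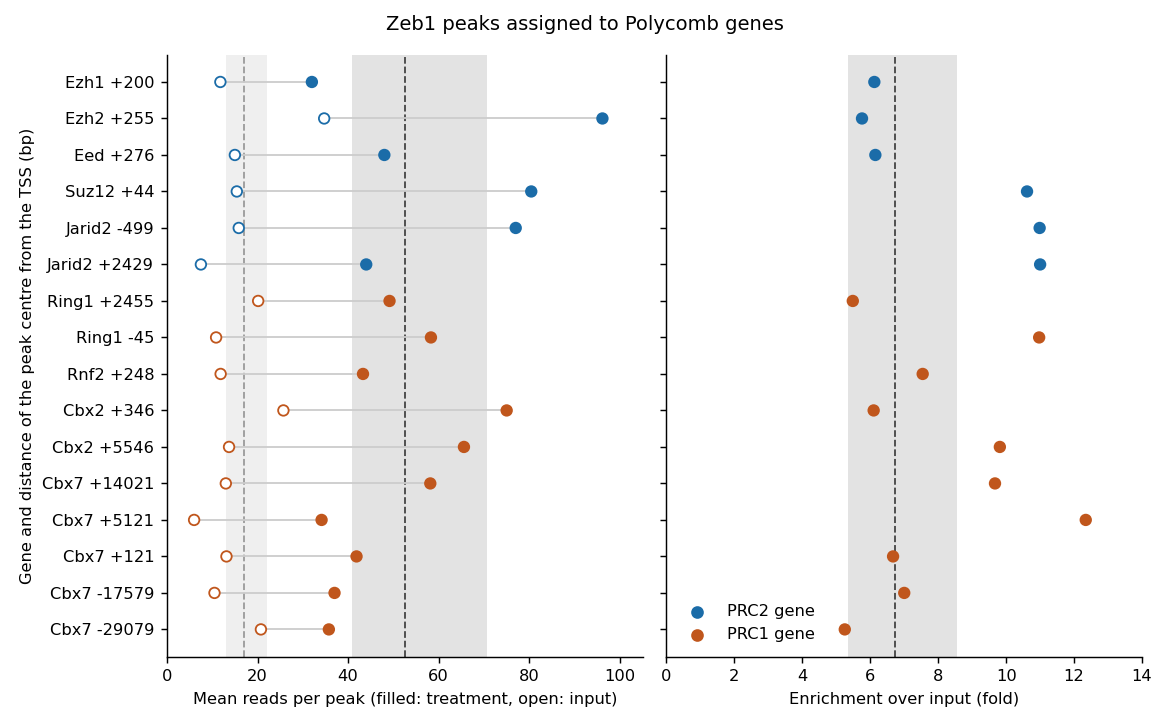
Mean treatment reads (filled) and input reads (open) on the left and enrichment over input on the right for the 16 Zeb1 peaks of the Polycomb genes, each named by gene and distance of its centre from the TSS in bp. Bands and dashed lines give the quartiles and the median of all promoter peaks. The Ezh2 peak has the most treatment and the most input reads, and the Cbx7 peak at +5121 bp has the highest enrichment, 12.3.

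Ezh1 and Ezh2 code for the alternative methyltransferases of PRC2. The Ezh2 peak, chr6:47593551-47596000, had 96.1 treatment reads, more than 90.4% of the 10698 promoter peaks, and 34.7 input reads, more than 96.6% of them. Its enrichment was 5.76, higher than that of 32.2% of promoter peaks. It was therefore the member with the most reads of both kinds and with the lowest best enrichment. The peak reached from 970 bp upstream to 1479 bp downstream of the TSS and was centred in intron 1. It also contained the start of the divergent non-coding gene F830010H11Rik, 179 bp from the TSS of Ezh2. The Ezh1 peak, chr11:101225401-101227100, was shorter, at 1700 bp, and had 32 treatment reads, the lowest number among the 16 peaks. Its 11.8 input reads gave an enrichment of 6.12. Per kb of peak, Ezh2 had 39.2 treatment and 14.2 input reads and Ezh1 had 18.8 and 6.94, so that both densities were higher in Ezh2 and the enrichments were close.

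The Ezh1 promoter was the member promoter with Zeb1 letters nearest to the TSS. The sequence of each peak was searched on both strands for the Zeb1 motif, written out as CNCACCTG, CNTACCTG, TNCACCTG and TNTACCTG, and separately for its core CACCTG, which lies inside the first and the third of these. In Ezh1 the match CACACCTG lay 76 bp upstream of the TSS, and a core on the other strand, CAGGTG, lay 54 bp upstream. The stretch from 110 to 31 bases before the TSS, chr11:101226494-101226573 of GRCm38.p6, is shown on the minus strand, the strand of the gene, with the matches in capitals.

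Ezh1: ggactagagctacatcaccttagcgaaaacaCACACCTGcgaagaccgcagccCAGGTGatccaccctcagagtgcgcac

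Eed codes for the subunit of PRC2 that binds methylated H3K27, and Suz12 for the scaffold subunit. The Eed peak, chr7:89979651-89981750, had 48 treatment and 15 input reads, with an enrichment of 6.15, and its centre, 276 bp past the TSS, fell in the 5´ UTR part of exon 1 of 12. The Suz12 peak, chr11:79992001-79994300, had 80.4 treatment reads with only 15.4 input reads, and its enrichment of 10.6 was higher than that of 89.6% of promoter peaks. Its centre lay 44 bp downstream of the TSS, in the 5´ UTR of exon 1 of 16. The input reads of Eed and Suz12 were nearly equal, and the treatment reads carried the difference.

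In motif content these genes also differed. The Eed peak held 2 matches that abut on opposite strands, 260 and 252 bp upstream of the TSS, and share the unbroken run in capitals in the stretch chr7:89981187-89981276, shown on the minus strand from 300 to 211 bases before the TSS.

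Eed: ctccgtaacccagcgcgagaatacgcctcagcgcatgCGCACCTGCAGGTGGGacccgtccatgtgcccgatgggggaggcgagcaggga

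The Suz12 peak, with its higher enrichment, held 0 matches of the motif and 0 of the core in 2300 bp. Among the 1966 promoter peaks of like length, within 10%, 80.9% held the motif and 84.7% the core. No match says only that these letters are not in this window. The 120 bases before the Suz12 TSS, chr11:79992986-79993105 on the plus strand, are shown with the 17 CpG dinucleotides in capitals.

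Suz12: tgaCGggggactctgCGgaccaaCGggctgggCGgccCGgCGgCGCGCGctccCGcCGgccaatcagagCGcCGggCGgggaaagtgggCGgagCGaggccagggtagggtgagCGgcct

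Jarid2 codes for an accessory subunit that takes part in the recruitment of PRC2. It had 2 promoter peaks. The first, chr13:44728701-44731850, was centred 499 bp upstream of the TSS, was the longest promoter peak of the members at 3150 bp, and had 77 treatment and 15.9 input reads. The second, chr13:44732801-44734600, was centred in intron 1, 2429 bp downstream of the TSS of a second transcript, with 44 treatment and 7.5 input reads. Their enrichments, 10.99 and 11, were nearly equal, and both had 24.4 treatment reads per kb. Input was 5.03 reads per kb in the first and 4.17 in the second. Only 2.71% of promoter peaks had fewer input reads than the second peak, so that its ratio rests on few input reads. The first peak held 3 matches of the motif, 1214 and 996 bp upstream and 116 bp downstream of the TSS, and the second held 1. A match in each peak is given with 11 bases on either side, on the plus strand, at chr13:44729546-44729575 and chr13:44734172-44734201.

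Jarid2 first peak: atgtgtgtctgCAGGTGGAtgggagaggct
Jarid2 second peak: ccaggtcccagCAGGTGAGcattgggaagc

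Ring1 and Rnf2 code for the alternative E3 ligases of PRC1. The Ring1 peak at the TSS, chr17:34023801-34025650, had 58.3 treatment reads, 10.9 input reads and a 10.97-fold enrichment, and its centre lay 45 bp upstream of the TSS. It contained the microRNA genes Mir219a-1 and Mir219c, whose starts lie 412 and 332 bp from that of Ring1. A second peak, chr17:34020801-34023650, covered most of the rest of this short gene of 3889 bp, and 1724 of its 2850 bases were exonic. It had 49.1 treatment reads, and with 20.1 input reads its enrichment was 5.49. Treatment reads per kb were 31.5 in the first and 17.2 in the second peak, whereas input reads per kb were 5.87 and 7.07. The Rnf2 peak, chr1:151499501-151501650, had 43.3 treatment and 11.9 input reads, with an enrichment of 7.54, and was centred in intron 1, by the listed distance 248 bp downstream of the TSS. From the curated RefSeq TSS its centre lay 415.5 bp downstream. Between these paralogs, the peaks at the TSS had nearly the same input reads, and Ring1 had more treatment reads over a shorter peak.

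Motif content again went apart within the pair. The Ring1 peak at the TSS held 1 match, 864 bp downstream of it, and the second peak held 4, of which 3 lay in coding exons. The match in chr17:34022102-34022131, in an intron, was the nearest to a peak centre in any promoter peak of the members, at 109 bases. A match in a coding exon, chr17:34023163-34023192, is given below it, both on the minus strand.

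Ring1 intron: gggtggtagtgTACACCTGtcattcccaga
Ring1 exon: acaaggagtgcCCTACCTGccggaaaaagc

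The Rnf2 peak held 0 matches of the motif and 0 of the core in 2150 bp, where 79.5% of 2438 promoter peaks of like length held the motif. It had the highest observed over expected CpG of the members, 0.952. The 120 bases before its TSS, chr1:151500992-151501111 on the minus strand, carry 14 CpG dinucleotides, in capitals.

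Rnf2: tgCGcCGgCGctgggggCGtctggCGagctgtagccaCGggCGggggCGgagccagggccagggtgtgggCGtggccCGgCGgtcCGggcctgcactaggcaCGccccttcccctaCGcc

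Cbx2 and Cbx7 code for chromodomain subunits of PRC1 that bind methylated H3K27. At the TSS, the Cbx2 peak, chr11:119022101-119024650, had 75 treatment and 25.7 input reads, for an enrichment of 6.1, with its centre in intron 2 of 4, 346 bp downstream. It overlapped the neighbouring gene Gm35829. A second Cbx2 peak, chr11:119027301-119029850, of the same 2550 bp, was centred 5546 bp downstream of the TSS in the coding part of exon 5 of 5. Its 65.6 treatment reads stood over 13.7 input reads, and its enrichment of 9.81 was higher than at the TSS. The peak at the Cbx7 TSS, chr15:79931701-79933350, had 41.9 treatment and 13.1 input reads, for an enrichment of 6.67, with its centre in the 5´ UTR of exon 1 of 7.

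Cbx7 had 5 assigned peaks, the most of any member. Of the 11193 protein-coding genes with an assigned peak, 26.5% had at least 2, and of the 9 members 4 did: Jarid2, Ring1, Cbx2 and Cbx7. The highest enrichment of all 16 peaks, 12.3, was in the Cbx7 peak of chr15:79926551-79928500, in intron 2 and 5121 bp downstream of the TSS. This peak, which is beyond the promoter limit, had 34.1 treatment reads over 6 input reads. Fewer input reads were found in 3.00% of all peaks and in 0.925% of promoter peaks. Near the end of the gene a peak at chr15:79917151-79920100 had 58.1 treatment reads and an enrichment of 9.67, and overlapped the end of Apobec3, a cytidine deaminase gene. The remaining peaks lay upstream of this TSS, centred 17579 and 29079 bp from it, with enrichments of 7 and 5.25. They fall within the longer Cbx7 gene of the reference, which runs from 79915804 to 79971143 on Chr. 15, and 1 annotation of the list places both in intron 1 of the Ensembl gene, whereas its more detailed annotation calls both intergenic. The farthest peak had 35.8 treatment reads for 20.8 input reads, a ratio of 1.72, the lowest of the 16, although its listed enrichment was 5.25. Enrichment was 3.05 times the ratio of the reads in this peak, against a median of 2.08 times in all promoter peaks, with quartiles of 1.99 and 2.17. In all peaks beyond 5 kb the median was 2.05 times, with quartiles of 1.95 and 2.19. The reason for the higher value in this peak was not tested.

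Cbx2 and Cbx7 also gave the peaks just outside the promoter limit, at 5546 and 5121 bp. With a limit of 10 kb these replaced the peaks at the TSS as the best peaks of the genes, and the median over the members rose from 6.67 to 9.81, beside 6.90 over all genes. With a limit of 1 kb it was 6.67, beside 6.76.

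The motif matches of Cbx2 at the TSS lay 840 and 1102 bp downstream, outside the exons, and are shown on the plus strand in chr11:119023847-119023876 and chr11:119024109-119024138. The peak at the Cbx7 TSS held the core 2 times and the motif 0 times. In the peak near the end of Cbx7 a match lay 10 bases from the centre, in chr15:79918601-79918630, on the minus strand.

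Cbx2 nearer match: gctccccctccCCTACCTGccttccctccc
Cbx2 farther match: gtccccggcagCCCACCTGgatgctgctca
Cbx7: agctagctaggCAGGTGCAcatgcgccctc

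Bmi1 codes for a PCGF subunit of PRC1 and was the member without an assigned peak. The gene lies on Chr. 2 from 18677018 to 18686629, and 0 peaks overlapped it. A peak with 38.5 treatment reads over 14 input reads, enriched 6.2-fold, chr2:18671351-18673200, was assigned to Commd3, the gene next to Bmi1 upstream. It contained the start of Commd3 and was centred 187 bp upstream of the Commd3 TSS. It ended 3818 bp before the start of Bmi1, and its centre lay 4742 bp upstream of the Bmi1 TSS. Downstream, a peak with 101 treatment reads and an enrichment of 7.2, chr2:18688101-18691050, began 1472 bp after the end of Bmi1 and was assigned to BC061194. Counted by the RefSeq TSS instead of the gene named in the list, the Commd3 peak put Bmi1 within the limit of 5 kb, and all 10 members then had a peak, beside 49.4% of protein-coding genes. For Bmi1 this count takes a peak at the start of its neighbour. The 120 bases before the Bmi1 TSS, chr2:18676898-18677017 on the plus strand, hold 11 CpG dinucleotides, in capitals, and neither the motif nor its core.

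Bmi1: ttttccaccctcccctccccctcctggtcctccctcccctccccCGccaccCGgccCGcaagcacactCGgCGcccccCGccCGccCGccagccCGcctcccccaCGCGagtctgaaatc

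**Figure D2:**
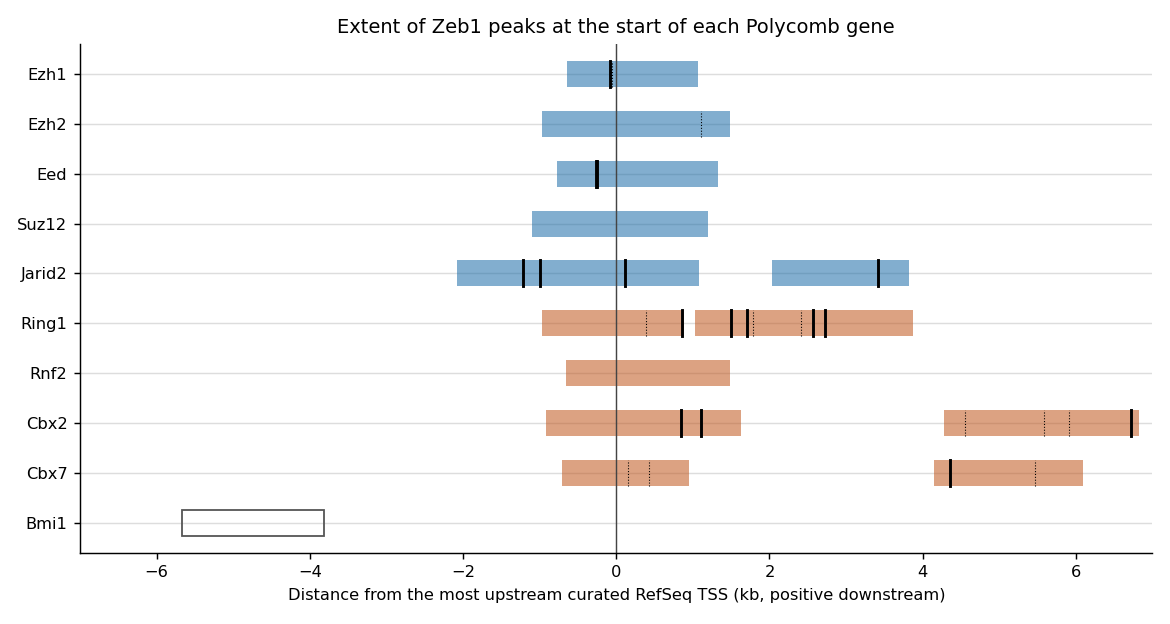
Extent of the Zeb1 peaks within 7 kb of the most upstream curated RefSeq TSS of each Polycomb gene, in kb with positive values downstream, for PRC2 (blue) and PRC1 (orange). Thick ticks are matches of the Zeb1 motif, dotted ticks its core alone, and the open box is the peak assigned to Commd3. Peaks cross the TSS in 9 of the 10 genes, and the Suz12 and Rnf2 peaks hold no tick.

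The peaks that contain the TSS were compared over the 9 members. In 7 of the 9 the peak centre lay downstream of the TSS, as it did in 76.0% of all 9475 promoter peaks that contain the TSS of their gene. Their length was above the median of those peaks, 1950 bp, in 6 of 9, and treatment reads were above the median of 53.5 in 5 of 9. Input reads were above the median of 17.1 in only 2, Ezh2 and Cbx2, and both of these had an enrichment below the median of 6.79. Enrichment was above it in 4 of 9. At the TSS of Suz12, Jarid2 and Ring1 input reads lay between 10.9 and 15.9, a range that also held those of Ezh1, Eed, Rnf2 and Cbx7, and treatment reads between 58.3 and 80.4.

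Most members also lay on the same side of the median in CpG content. Observed over expected CpG, the number of CpG relative to that given by the C and G content, was above the median of 0.66 in 8 of the 9 peaks at the TSS, with Cbx7 as the exception at 0.618. The median over the 9 was 0.851. Ring1, at 0.71, and Cbx2, at 0.7, lay within the quartiles of 0.555 and 0.756. In Ezh2, Eed, Suz12, Jarid2 and Rnf2 it was between 0.851 and 0.952 and higher than in at least 92.2% of promoter peaks. GC content did not share this, and was above the median of 57% in 4 of the 9. The second promoter peaks were lower, with 0.684 in Jarid2 and 0.325 in Ring1, the latter higher than in only 6.27% of promoter peaks. The 5 member peaks beyond 5 kb had an observed over expected CpG between 0.263 and 0.414, around the median of 0.347 for all peaks beyond 5 kb. Whether CpG content relates to the presence of a peak was not tested.

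**Figure D3:**
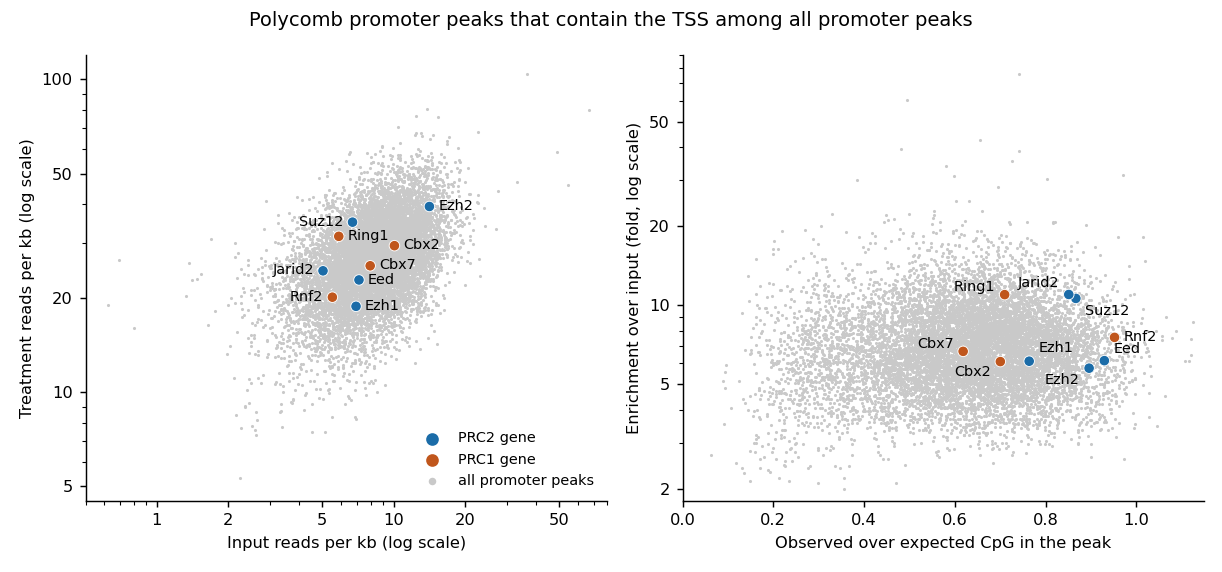
Treatment against input reads per kb (left, log scales) and enrichment against observed over expected CpG (right, enrichment on a log scale) for the promoter peaks of the Polycomb genes that contain the TSS, in blue (PRC2) and orange (PRC1), over all 10698 promoter peaks in grey. Ezh2 is high in both reads, and 5 of the genes lie between 0.851 and 0.952 in CpG.

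The motif was found in a promoter peak of 5 of the 9 members, Ezh1, Eed, Jarid2, Ring1 and Cbx2, and not in Ezh2, Suz12, Rnf2 and Cbx7. Of the 9466 protein-coding genes with a promoter peak, 77.5% had a match in one. By peaks, 7 of the 11 promoter peaks of the members held a match, against 76.8% of all promoter peaks and between 68.9% and 88.5% of the promoter peaks of like length. The core was present in 7 of the 9, all but Suz12 and Rnf2, and in 82.1% of the 9466 genes, so that neither count was above its background. Of the 14 motif matches in the promoter peaks, 9 lay downstream and 5 upstream of the TSS, and 1 lay within the 500 bases around a peak centre. In the 11 peaks a match in that window was present in 1, the second Ring1 peak, beside 32.6% of all promoter peaks. The 5 peaks beyond 5 kb all held the motif, with 15 matches together, and 76.8% of all peaks at such distances held it. Of these matches 14 lay in peaks of Cbx7 and 1 in the farther Cbx2 peak. Their median length was 2550 bp, against 1650 bp for all peaks beyond 5 kb, and a share at like length was not taken. Of the upper set in enrichment, Jarid2 and Ring1 held the motif and Suz12 held neither it nor the core. A window from 250 bases before to 50 after the start, in the RefSeq promoter table of GRCm38.p6, was found for 9 members. It held a match in 1, Ezh1, and 16.9% of the 32851 windows of the table held one.

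The neighbourhood of the members was described by the number of peaks centred within 50 kb of the TSS, whatever gene they were assigned to. This measure was added after the peaks had been seen. The median over 21000 protein-coding genes was 1, and 7 of the 10 members were above it, whereas 56.6% of genes had fewer than 2 peaks. Ring1, Cbx2 and Cbx7 had 7 peaks each, more than 94.8% of genes, Ezh1 and Bmi1 had 4, Suz12 and Jarid2 had 2, and Ezh2, Eed and Rnf2 had 1, the peak at their own TSS. Ezh2, Eed and Rnf2 thus stood with 1 peak, and Ring1, Cbx2 and Cbx7 among several. Of the 7 peaks, 5 were assigned to the gene itself in Cbx7, and 2 each in Cbx2 and Ring1.

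Cbx2 lies beside Cbx8, which codes for a further chromodomain subunit of PRC1. From the start of Cbx2 to the end of Cbx8, 17.9 kb on Chr. 11, with 5 kb on either side, the list had 4 peaks, 2 assigned to each gene. The highest enrichment, 10.9 with 126 treatment reads, was in the Cbx8 peak of chr11:119040051-119043600, centred 912 bp upstream of the Cbx8 TSS. The other Cbx8 peak, within the gene, had the lowest, 5.18. Of the 5 peaks assigned to Cbx8, the others lay farther upstream of it, beyond this window. In Cbx2 the peak at the TSS was the lower one. On Chr. 15, Cbx6 and Cbx7 lie farther apart, with Apobec3 among the genes in between. The Cbx6 promoter was covered by a peak of 69.4 treatment reads and an enrichment of 8.8, chr15:79832701-79834950, which the list assigns to Npcd, a gene that shares this start.

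**Figure D4:**
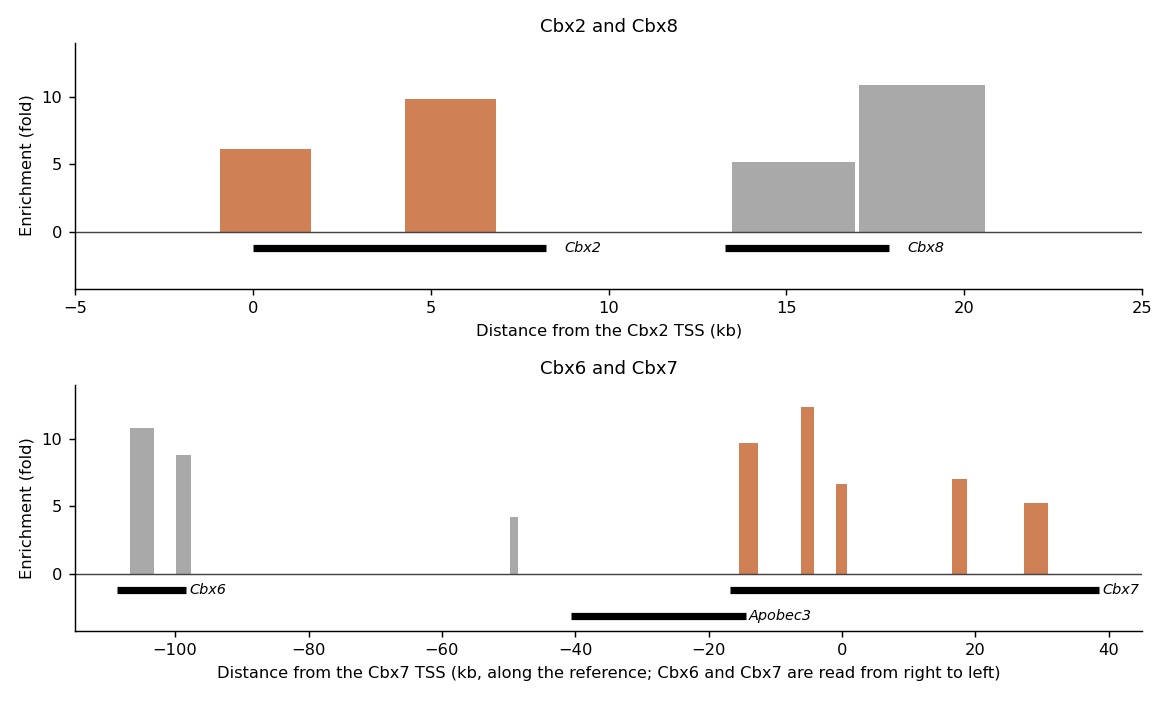
Enrichment over input (height) and extent of the Zeb1 peaks along Cbx2 and Cbx8 (top, in kb from the Cbx2 TSS) and along Cbx6 and Cbx7 (bottom, in kb from the Cbx7 TSS). Peaks assigned to Cbx2 or Cbx7 are orange and those assigned to other genes grey, and black bars are the named genes only. The upper row holds 4 peaks from 5.18 to 10.9.

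The other genes of the Polycomb system were taken from a list, grouped by complex, of which 35 were analysed. Of these, 28 had an assigned peak, beside 51.1% of all protein-coding genes, and 24 a promoter peak, beside 43.2%. Both shares were again higher than the background, which was not tested. The median of their best promoter enrichment was 7.3, with a range from 4.46 to 14.6. Both histone-binding subunits of PRC2 had a promoter peak, Rbbp7 with an enrichment of 13.2 over 6 input reads and Rbbp4 with 6.66 over 24.6. Of the 6 accessory subunits of PRC2, 5 had one, the highest in Epop, listed as E130012A19Rik, at 9.24, and the lowest in Phf1, at 5.28, and Lcor had none.

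The PCGF genes, relatives of Bmi1, had a promoter peak in 3 of 5. Pcgf3 had the highest enrichment of all 35 genes, 14.6 from 47.9 treatment and 7.43 input reads, and Pcgf6 the lowest of its group, 8.2, whereas Pcgf1 and Pcgf5 had no promoter peak. Of the 7 CBX, PHC and SCM genes 3 had one, from Cbx8 with 10.9 to Phc3 with 4.72. Cbx6, Phc1, Scmh1 and Scml2 had none. Of the 10 genes for variant PRC1 7 had one. Bcor was the highest with 13.1, in a peak 3453 bp downstream of the TSS with 5 input reads, E2f6 the lowest with 4.53, and Yaf2, Bcorl1 and L3mbtl2 had none.

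The enzymes that remove the Polycomb marks were also represented. In PR-DUB, the deubiquitinase of H2A, Asxl2 had an enrichment of 6.73 and Asxl1 one of 4.46, and the catalytic subunit gene Bap1 had no promoter peak. Both H3K27 demethylase genes had one. The Kdm6a peak, with an enrichment of 13.6 over 8.29 input reads, was centred 17 bp upstream of the TSS. Rbbp7, Bcor and Kdm6a lie on Chr. X, as do Scml2 and Bcorl1, which had no promoter peak. The best promoter peak of Kdm6b, with 5.7, lay 4750 bp upstream, near the limit. Of the 11 genes without a listed promoter peak, 4 had a peak centred within 5 kb of a curated RefSeq TSS. For Lcor and Pcgf5 this was a peak of the same gene listed at the distance to another transcript, for Cbx6 that of Npcd, and for Bap1 that of Phf7. Phc1, Scml2, Yaf2 and Bcorl1 had no peak over the gene or its 5 kb flanks.

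**Figure D5:**
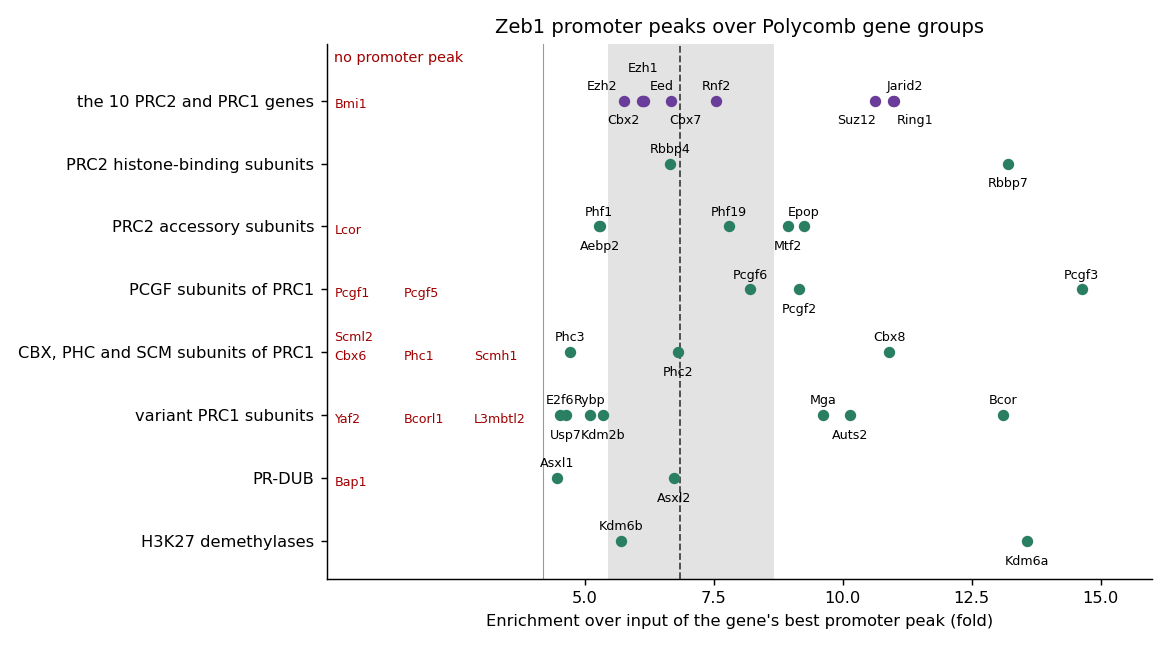
Enrichment over input of the best promoter peak of each Polycomb gene, by group, for the 10 members (purple) and 35 other genes (green), with genes without a promoter peak in red at the left. The band and the dashed line give the quartiles, 5.44 and 8.66, and the median, 6.84, of all protein-coding genes with a promoter peak.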

How the data were processed

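Per the labels and the study's methods, Ion Torrent reads were trimmed, drawn to an equal number per library, aligned to mm10 with STAR 2.4.2a, freed of duplicates with Picard 1.136 and used to call broad peaks of each Zeb1 ChIP library against the input with PeakRanger. Peaks seen in more than 1 library were unified, recounted, averaged and annotated with HOMER 4.7. The read columns are a signal, the mean reads per peak deposited by the authors, and enrichment is a ratio of treatment over input, scaled by mapped reads by the authors in a way that could not be rebuilt from the list. The deposited p-value is 0 for every peak and was not used. The lowest values in the list were 20 treatment reads and an enrichment of 2. The authors drew the same number of reads from each library, and the list does not give how many were left after alignment.

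Genes were matched by symbol, and for other lists by Entrez number, to RefSeq of GRCm38.p6, the same assembly as mm10. Deposited distances are positive downstream of the TSS: of 14146 that matched the reference within 2 bp, 14143 had this sign. Among the 16 member peaks 12 matched within 2 bp. All values are descriptions without a test. The members and lists were chosen with earlier results of these data known. Named were all members, genes overlapped by their peaks, and of the other list the genes without a promoter peak and the highest and lowest of each group. Of the genes on the other list 1 was not analysed here. The names Commd3, BC061194, Npcd and Phf7, the lower and upper sets in enrichment, and the comparisons of CpG content and of neighbourhoods were chosen with the values in view. The motif search and the overlaps were tested on simulated data. Python 3.11.15, pandas 2.3.3 and pysam 0.24.0 were used.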

Additional observations from a re-analysis of the deposited data

How the results depend on the processing

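Of 20 alternatives over the main counts and the median, 14 left a count within 1.5 times of its value or the median at 6.67. This tally does not measure robustness, because several outcomes were fixed in advance. Merged peaks, a wider limit or added flanks cannot lower the members' counts, and 9 of 10 cannot rise 1.5 times. A minimum enrichment of 5 removed no member peak, as the lowest was 5.25. The core, in 7 members against 5 with the motif, also counted within the 1.5 times. The members with an assigned peak were 9 or 10, those with a promoter peak 9 or 10, and the other Polycomb genes with one between 20, at an enrichment of at least 5, and 28, with RefSeq TSSs, a setting chosen after seeing the data. Both counts of 10 include Bmi1 only through peaks assigned to its neighbours. The share of protein-coding genes moved too: to 57.1% for overlap with the gene or its flanks and 41.9% for an enrichment of at least 5, and for promoter peaks to 35.5% at that enrichment, 39.4% at 1 kb, 44.9% at 10 kb and 49.4% with RefSeq TSSs. The median enrichment was 9.81 with a limit of 10 kb, by construction through the farther peaks of Cbx2 and Cbx7. As other measures of the same peaks, the median was 3.20 for treatment over input reads, beside 3.27 over all genes, and 25.4 for treatment reads per kb, beside 27.3. Members with the motif were 3 on the forward strand only, beside 54.3% of all genes with a promoter peak, and 1 in the 500 bases around the peak centre, beside 33.97%, against 5 members and 77.5% in the whole peak; both search less sequence. In the promoter window 1 member held it, over a shorter window and other genes, without Cbx2 and with Bmi1. No paired analysis was possible because the list holds no value per library. For the same reason leaving out a library was not run. Several peaks with a high enrichment rest on under 11 input reads, and these means carry a counting error that could not be measured.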
